A study of Mus musculus with 4 samples.

Results

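*Myc* and *Mycn* were examined by the accessible sites around them, each gene taken with its body and 500 kb on each side (GENCODE M21, mm10). Peaks of 4 ATAC-seq libraries that overlapped either window were kept, and peaks of different libraries that shared at least 1 base were merged into regions. Of 357570 regions in all, 307 lay in the 2 windows, 193 around *Myc* and 114 around *Mycn*. A region more than 3 kb from every protein-coding start site was called distal, which held for 186 regions at *Myc* and 105 at *Mycn*. A distal region with peaks in both lines of one cell type and in neither line of the other is called an SMC-only or a non-SMC-only site.

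ATAC-seq inserts sequencing adapters into open chromatin, so a peak marks a stretch where the transposase reached the DNA. All 4 lines were untreated and came from lung tumors of *RP* mice (*Rb1* L/L, *Trp53* L/L) on a mixed background of C57Bl/6, Balb-c and S129, in which Ad-Cre deletes both genes, and both cell types carried the deletions. The SMC lines were grown from NCAM hi CD44 lo/- cells, the metastasizing cells of this small-cell lung cancer (SCLC) model, and the non-SMC lines from NCAM lo CD44 hi cells, both isolated by FACS. Each type had 2 lines with 1 library each, called here SMC-1, SMC-2, non-SMC-1 and non-SMC-2. Taken as unpaired, 2 lines against 2 cannot go below p = 0.333 in a two-sided exact permutation test. No difference between the types was tested.

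MYC and MYCN are paralogous transcription factors of the basic helix-loop-helix leucine zipper class. They pair with MAX, bind the E-box CACGTG and drive growth and cell cycle genes, and both are amplified in subsets of SCLC. *Mycn* is active in neural and neuroendocrine lineages, while *Myc* is used in many cell types and is flanked by *Pvt1*, a long noncoding RNA gene known to hold *Myc* enhancers.

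The 4 lists held between 91057 and 153954 peaks on the main chromosomes, and the depth estimated from the lowest background in each list was 8.36 M mapped tags for SMC-1, 29.4 M for SMC-2, 23.5 M for non-SMC-1 and 10.4 M for non-SMC-2. Depth therefore differed as much within a type as between types. Promoters of 6 SMC markers had peaks for 5 and 6 genes in the SMC lines and for 4 and 4 in the non-SMC lines. *Chga* was listed in the SMC lines alone, *Ncam1* and *Sox11* in all 4 lines, and *Neurod1* in every line but SMC-1. *Insm1* lacked a peak in non-SMC-2 alone and *Nkx2-1* in non-SMC-1 alone. Promoters of 6 non-SMC markers, among them *Cd44*, *Wwtr1* and *Yap1*, had peaks for 2 and 6 genes in the SMC lines and for 6 and 6 in the non-SMC lines. Of 3 immune markers, 0 and 1 had a promoter peak in the SMC lines and 1 and 0 in the non-SMC lines. The same counts were 2 and 2 against 2 and 3 for 3 endothelial markers, and 2 and 1 against 2 and 3 for 3 fibroblast markers, and their part in the results was not tested.

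The *Myc* window was more densely accessible in the non-SMC lines. *Myc* (ENSMUSG00000022346.15) lies on the plus strand at chr15:61985391-61990374, and its window runs from 61485391 to 62490374. SMC-1 had 32 peaks there, SMC-2 had 40, non-SMC-1 had 88 and non-SMC-2 had 112. The types did not overlap, with means of 36 ± 5.66 for SMC and 100 ± 17 for non-SMC (SD, n = 2 each). The difference of -64 was larger than the SD between lines of a type, 12.6. Over the windows of all 21938 protein-coding genes, each non-SMC line had more peaks than each SMC line in 14.1%.

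Each library was also read against its own other windows. The *Myc* window held more peaks than 27.6% of gene windows in SMC-1, 21.0% in SMC-2, 64.8% in non-SMC-1 and 84.3% in non-SMC-2. It was thus below the median window in both SMC lines and above it in both non-SMC lines. Peaks with a −log10 q of 5 or more numbered 3, 9, 42 and 23 in the same order of libraries, again without overlap. That direction was common in these lists, since 53.0% of all gene windows showed it. The bases covered by peaks were 6525 and 9849 in the SMC lines and 32527 and 30776 in the non-SMC lines.

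**Figure D1:**
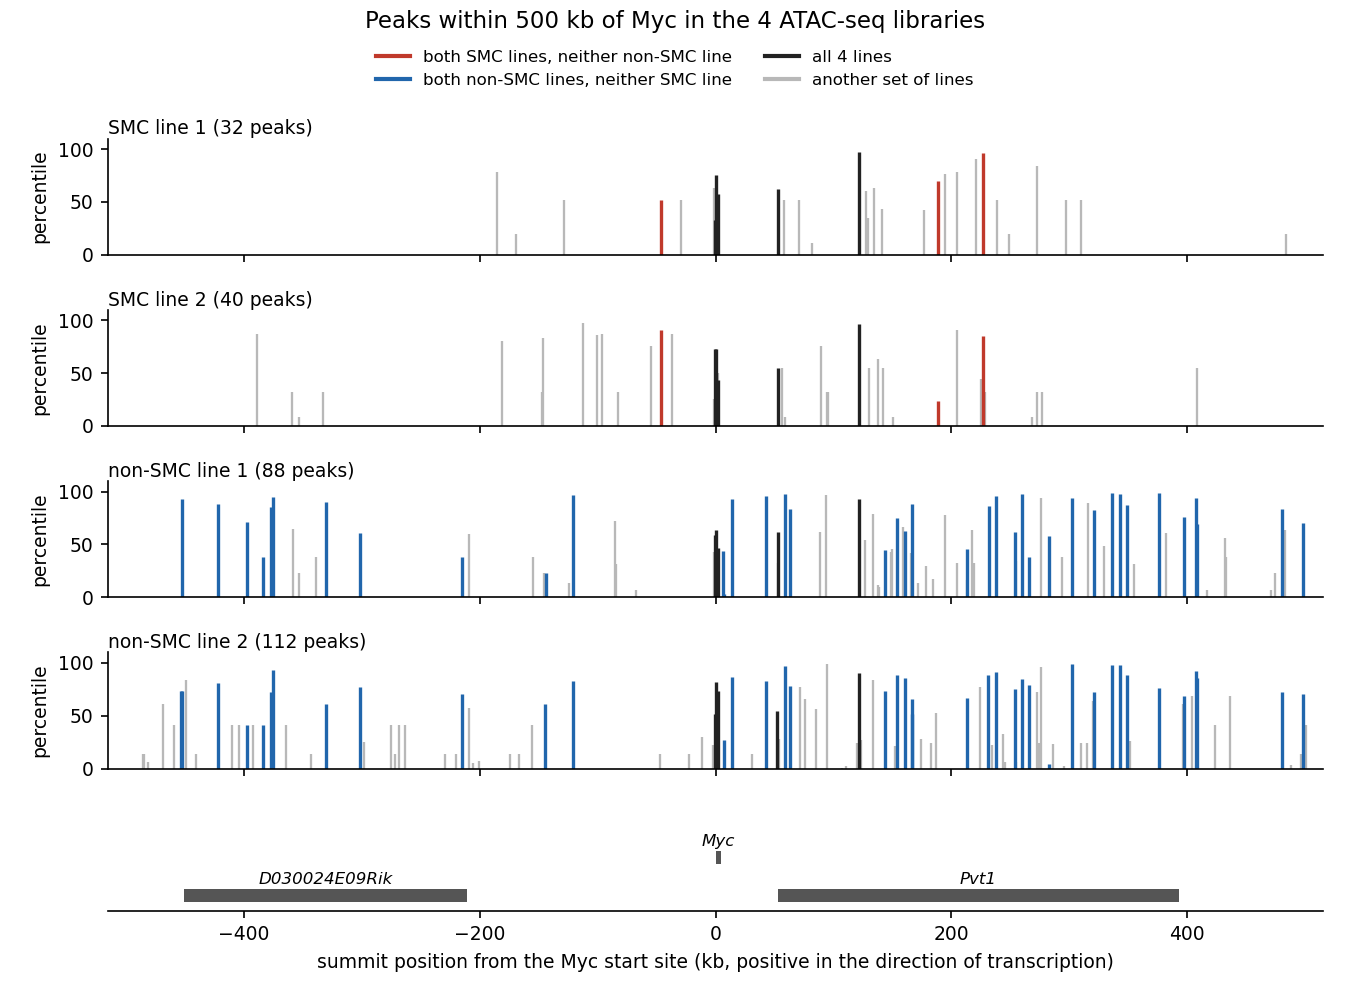
Position of each peak summit from the *Myc* start site (x axis, kb) and its fold enrichment percentile within its library (y axis), 1 row per library, with genes as bars below and color giving the lines that share the region. The 39 sites of both non-SMC lines spread from -452 kb to 498 kb, while 3 sites are shared by both SMC lines alone.

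The *Myc* promoter itself was accessible in all 4 lines. Within 6 kb centered on the start site, SMC-1 and SMC-2 had 6 peaks each and both non-SMC lines had 5. Fold enrichment is the pileup at the summit over the local background, and its percentile is its rank among all peaks of that library. The highest promoter peak lay 76 and 77 bp downstream of the start site in the SMC lines and 174 and 224 bp downstream in the non-SMC lines. It had a fold enrichment of 4.56 (percentile 75.7) in SMC-1, 3.81 (73.3) in SMC-2, 4.75 (63.7) in non-SMC-1 and 5.55 (81.6) in non-SMC-2. The types overlapped, and the mean difference in percentile, 1.85, was smaller than the SD between lines, 9.06. The −log10 q of these peaks was 3.65 and 4.25 in the SMC lines and 15.3 and 8.69 in the non-SMC lines, so at a −log10 q of 5 the promoter would be listed in the non-SMC lines alone. The local background at these peaks, the denominator of the fold enrichment, was 3.58 and 2.42 times the lowest of the library in the SMC lines, and 5.84 and 4.64 times in the non-SMC lines. Like *Myc*, 48.7% of protein-coding genes were listed at the promoter by every library.

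Distal regions were sorted by the lines that listed them, so the classes differ between the types by definition and only their shares are results. At *Myc*, 39 of 186 distal regions (21.0%) were non-SMC-only, against 7.52% of all 321102 distal regions, and 3 (1.61%) were SMC-only, against 4.39%. Another 2 had peaks in all 4 libraries (1.08%, against 1.49%). Of the remaining distal regions, 59 were listed in non-SMC-2 alone, 35 in non-SMC-1 alone, 23 in SMC-2 alone and 16 in SMC-1 alone. Counting a further region of non-SMC-2 that was not distal, few of these reached a −log10 q of 5: 1 of 16 and 5 of 23 in the SMC lines, and 5 of 35 and 1 of 60 in the non-SMC lines.

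To show what the lines shared and what they did not, 201 bases around the highest summit are given (GRCm38.p6, the assembly of mm10, plus strand) for the 3 non-SMC-only sites with the highest mean percentile, for the highest SMC-only site and for the highest site of all 4 lines. The non-SMC-only stretches are chr15:62321031-62321231 (336 kb from the *Myc* start site), chr15:62328349-62328549 (343 kb) and chr15:62043874-62044074 (58.6 kb). The SMC-only stretch is chr15:62212380-62212580 (227 kb) and the shared one chr15:62106673-62106873 (121 kb), and all 5 lie in *Pvt1* introns. Capitals mark matches, on either strand, to the 7 motifs reported: AP-1 TGACTCA, TEAD GGAATG, RUNX TGTGGT or TGCGGT, SOX ACAAAG or ACAATG, NFI TTGGCA, the MYC E-box CACGTG and forkhead TGTTTAC or TGTTTGC.
Non-SMC-only, 336 kb: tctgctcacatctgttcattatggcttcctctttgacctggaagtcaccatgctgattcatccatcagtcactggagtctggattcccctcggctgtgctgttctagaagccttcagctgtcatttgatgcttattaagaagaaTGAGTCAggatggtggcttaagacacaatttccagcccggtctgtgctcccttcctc
Non-SMC-only, 343 kb: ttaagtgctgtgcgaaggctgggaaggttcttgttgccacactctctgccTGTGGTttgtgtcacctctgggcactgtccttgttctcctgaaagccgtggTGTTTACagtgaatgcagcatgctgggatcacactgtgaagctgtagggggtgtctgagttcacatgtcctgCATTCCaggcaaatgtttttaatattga
Non-SMC-only, 58.6 kb: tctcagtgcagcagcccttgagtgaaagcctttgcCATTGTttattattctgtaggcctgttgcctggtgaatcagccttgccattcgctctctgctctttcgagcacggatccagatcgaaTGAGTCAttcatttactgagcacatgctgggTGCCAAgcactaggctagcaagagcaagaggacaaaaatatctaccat
SMC-only, 227 kb: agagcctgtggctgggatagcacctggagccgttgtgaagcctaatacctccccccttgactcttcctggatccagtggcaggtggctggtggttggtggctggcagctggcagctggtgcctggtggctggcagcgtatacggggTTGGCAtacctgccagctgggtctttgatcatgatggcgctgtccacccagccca
All 4 lines, 121 kb: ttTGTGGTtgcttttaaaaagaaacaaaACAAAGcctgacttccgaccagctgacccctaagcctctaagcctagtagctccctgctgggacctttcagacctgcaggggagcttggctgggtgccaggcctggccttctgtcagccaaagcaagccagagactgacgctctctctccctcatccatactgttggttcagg

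The sites at 336 kb and 58.6 kb each hold an AP-1 match, read as TGAGTCA on the plus strand, starting at bases 145 and 123 of the printed stretch. The latter also holds a SOX and an NFI match. The site at 343 kb holds a RUNX, a forkhead and a TEAD match, and the stretch of all 4 lines a RUNX and a SOX match. The SMC-only stretch holds 1 NFI match.

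The strongest non-SMC-only sites at *Myc* ranked among the highest peaks of both lines. The region at chr15:62320980-62321398 had a fold enrichment of 15.9 in non-SMC-1 (percentile 98.7, −log10 q 55.5) and 12.3 in non-SMC-2 (98.3, 22.4). The region at 62328259-62329220 reached 14.6 (97.8, 103) and 12.4 (98.3, 32.2). The region at 62043669-62044234, close to the *Pvt1* start, reached 14.6 (97.8, 61.4) and 11.3 (97.4, 23.0). By the definition of the class, these 3 sites had no listed peak in either SMC line.

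The fourth site, at 62286599-62287745 in a *Pvt1* intron, reached 11.9 (percentile 94.2) in non-SMC-1 and 13.9 (99.2) in non-SMC-2. The fifth, at 61609612-61610031, lies at -375 kb from the *Myc* start site in an intron of *D030024E09Rik*, a long noncoding RNA gene on the opposite strand, and reached 12.6 (95.4) and 8.96 (93.8). The sixth, at 62222524-62223235, touches a *Pvt1* exon and reached 13.1 (96.1) and 8.05 (91.6). The mean percentile of the other sites fell from 93.4 to 15.1, so the 39 sites ran from peaks near the top of both lists to peaks near the bottom.

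Over the 39 sites the median of the mean percentile was 78.4, against 74.7 over all 24143 distal non-SMC-only regions. A −log10 q of 5 or more in both lines was reached by 16 (41.0%), against 38.3%. The summits of the 2 lines lay a median of 34 bp apart, and 25 of 39 lay within 50 bp (64.1%), against a median of 41 bp and 57.3% over all. The *Myc* sites were thus about as strong and as well aligned as other sites of their class, and stood out by their number.

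These sites lay mostly 3′ of the gene, as did the peaks of every library. Of all peaks in the window, 25 of 32 in SMC-1 and 24 of 40 in SMC-2 lay downstream of the start site. The same held for 65 of 88 in non-SMC-1 and 70 of 112 in non-SMC-2. Of the 39, 28 were downstream of the *Myc* start site and 11 upstream, and 19 were in *Pvt1*, 8 in *D030024E09Rik* and 12 in no gene. None lay between -121 kb and 5.996 kb from the start site. In the 340.1 kb of *Pvt1* the SMC lines had 20 and 19 of these peaks and the non-SMC lines 47 and 50. A location in *Pvt1* was thus not particular to the non-SMC-only sites. The *Pvt1* start (chr15:62037764-62038295) had a peak in all 4 lines, at percentiles of 62.5 and 54.6 in the SMC lines and 62.0 and 54.7 in the non-SMC lines, so that the types overlapped. At the window's edges, the outermost non-SMC-only sites lay at -453 kb and 498 kb from the start site, and the next beyond the edges at -531 kb and 516 kb.

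1 distal site within *Pvt1* was strong in every line. The region at chr15:62106425-62106975 had a fold enrichment of 9.52 in SMC-1 (percentile 97.0), 9.38 in SMC-2 (96.8), 11.3 in non-SMC-1 (93.2) and 7.61 in non-SMC-2 (90.3), and its −log10 q ran from 11 to 42.0. Accessible *Pvt1* chromatin was thus detected in both SMC libraries. The 3 SMC-only sites were weaker on the whole. The region at 62212308-62212798 had percentiles of 96.7 and 85.1 and the region at 61939122-61939718, at -45.9 kb, had 52.0 and 90.5. The region at 62173712-62173922 had 70 and 24. Of the 5 distal regions with peaks in 3 lines, 2 were strong in both non-SMC lines and low in SMC-2. They lay 94.2 kb downstream of *Myc*, at percentiles of 97.1 and 98.6 against 32.1, and 276 kb downstream, at 94.3 and 96.5 against 32.1. The region at 205 kb went the other way, with percentiles of 78.7 and 90.5 in the SMC lines, 32.6 in non-SMC-1 and no peak in non-SMC-2. The remaining pair were mixed. The region at 273 kb had 84.2 in SMC-1, 32.1 in SMC-2 and 72.4 in non-SMC-2, and the region at 134 kb had 63.2 in SMC-1, 79.2 in non-SMC-1 and 83.6 in non-SMC-2.

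The *Mycn* window carried its shared distal sites in the SMC lines. *Mycn* (ENSMUSG00000037169.15) lies on the minus strand at chr12:12936093-12941914, with a window from 12436093 to 13441914 that also holds the protein-coding genes *Ddx1*, which encodes an RNA helicase, and *Nbas*, which encodes a protein of vesicle transport and RNA decay. Both neighbours are often co-amplified with human *MYCN*. SMC-1 had 34 peaks, SMC-2 had 66, non-SMC-1 had 10 and non-SMC-2 had 37. In the full lists the types overlapped, with means of 50 ± 22.6 for SMC and 23.5 ± 19.1 for non-SMC (SD, n = 2 each). The difference of 26.5 was close to the SD between lines, 20.9. With equal list lengths the types did not overlap. Peaks with a −log10 q of 5 or more numbered 6 and 15 in the SMC lines and 3 and 3 in the non-SMC lines, without overlap. Only 2.17% of gene windows had more such peaks in each SMC line than in each non-SMC line.

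Against its own other windows, *Mycn* was below the median in every library. It held more peaks than 29.6% and 33.1% of gene windows in the SMC lines and than 8.55% and 20% in the non-SMC lines. The non-SMC-1 window was nearly empty near the gene, with 1 peak within 100 kb of the *Mycn* start site, against 6 in SMC-1, 11 in SMC-2 and 6 in non-SMC-2. The same library held 88 peaks around *Myc*.

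**Figure D2:**
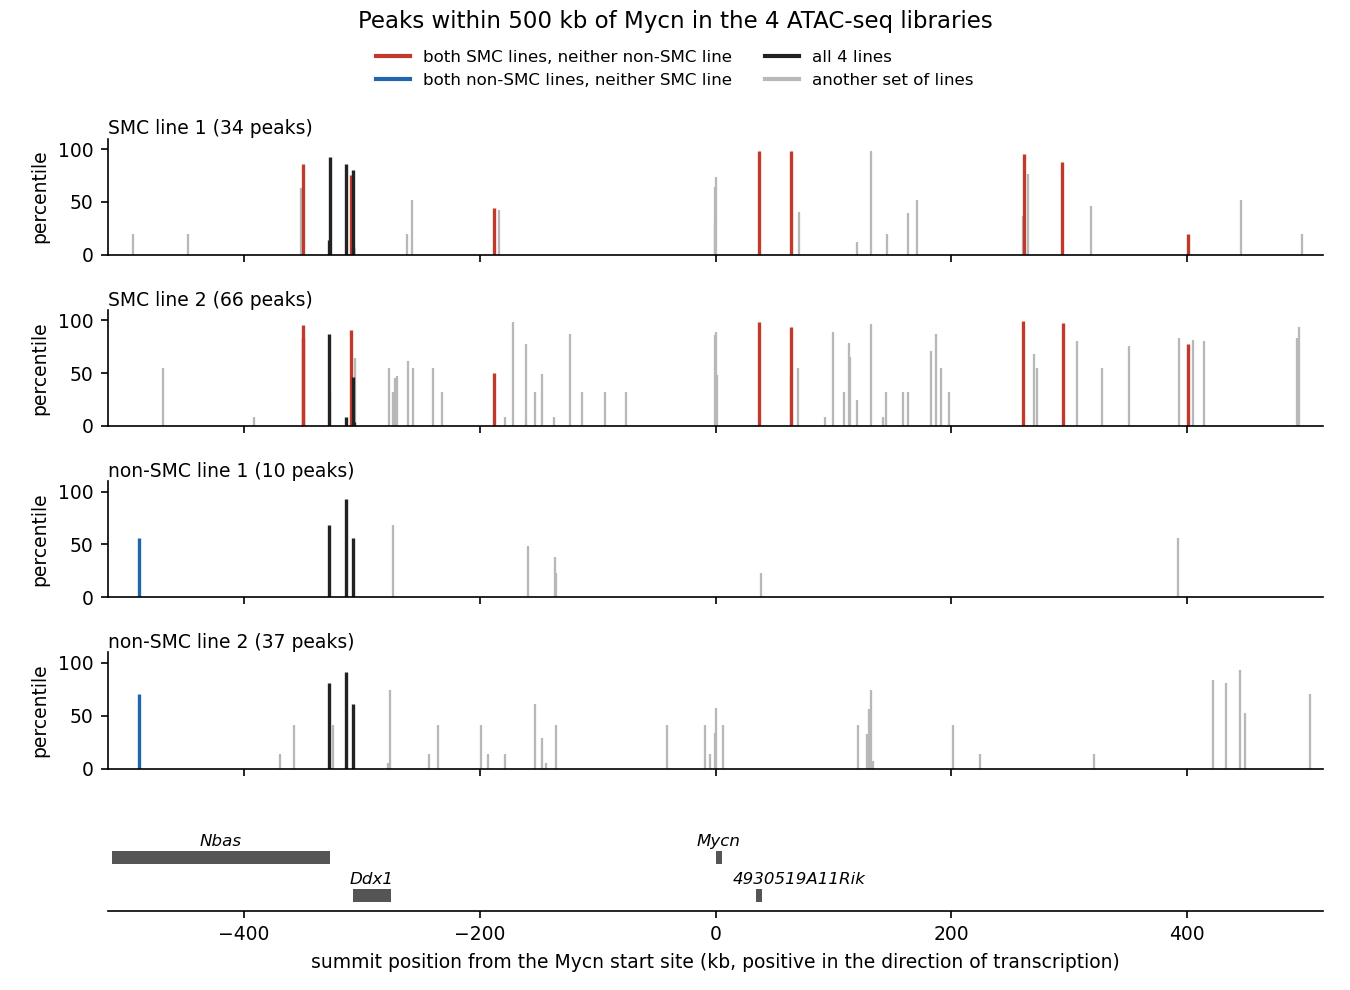
Position of each peak summit from the *Mycn* start site (x axis, kb) and its fold enrichment percentile within its library (y axis), 1 row per library, with genes as bars below and color giving the lines that share the region. The 7 distal sites of both SMC lines are drawn in red on both sides of the gene, beside a further red region next to *Ddx1* that is not distal, and non-SMC-1 has no peak at the start site.

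The *Mycn* promoter differed in the number of lines that listed it. SMC-1 and SMC-2 had 3 peaks each within 6 kb centered on the start site, non-SMC-2 had 2 and non-SMC-1 had none. The highest had a fold enrichment of 4.36 in SMC-1 (percentile 73.9, −log10 q 2.74), 5.77 in SMC-2 (88.6, 9.18) and 3.6 in non-SMC-2 (57.1, 1.70). The summits in the SMC lines lay 53 and 50 bp downstream of the start site, and the non-SMC-2 summit 285 bp downstream, and all 3 peaks covered the start site. Counting the missing peak as 0, the mean percentile was 52.7 higher in the SMC lines, with an SD between lines of 29.5. Only the SMC-2 peak passed a −log10 q of 5. The pileup behind the non-SMC-2 peak was 5 fragments.

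RefSeq's promoter table (GRCm38.p6) matched 1 of the 2 genes, and the 172 bases 5′ of the annotated *Mycn* start, chr12:12941915-12942086 on the minus strand, are printed because the promoter peaks of SMC-1, SMC-2 and non-SMC-2 reach into them.
Mycn, upstream of the start: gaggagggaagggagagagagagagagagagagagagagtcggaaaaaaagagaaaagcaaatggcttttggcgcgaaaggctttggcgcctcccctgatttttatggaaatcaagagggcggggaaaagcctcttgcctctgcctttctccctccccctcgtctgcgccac
None of the 7 motifs matched in this window, as was true of 52.4% of 32851 RefSeq promoters over the same length.

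At *Mycn*, 7 of 105 distal regions (6.67%) were SMC-only, against 4.39% of all distal regions, and 1 (0.952%) was non-SMC-only, against 7.52%. The 3 SMC-only sites with the highest mean percentile are printed as 201 bases around their highest summit (GRCm38.p6, plus strand), with the same motifs in capitals, to set them beside the non-SMC-only sites at *Myc*. They are chr12:12904782-12904982, 37.0 kb downstream of the *Mycn* start site, chr12:12680780-12680980, 261 kb downstream, and chr12:12877685-12877885, 64.1 kb downstream.
SMC-only, 37.0 kb: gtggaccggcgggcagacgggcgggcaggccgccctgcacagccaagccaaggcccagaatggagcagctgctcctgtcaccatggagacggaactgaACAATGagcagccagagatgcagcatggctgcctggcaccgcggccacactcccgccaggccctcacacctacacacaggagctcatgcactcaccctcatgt
SMC-only, 261 kb: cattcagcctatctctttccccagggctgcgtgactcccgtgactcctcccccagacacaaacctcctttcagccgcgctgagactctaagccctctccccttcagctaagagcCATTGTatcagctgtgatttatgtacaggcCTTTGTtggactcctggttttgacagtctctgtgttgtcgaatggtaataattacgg
SMC-only, 64.1 kb: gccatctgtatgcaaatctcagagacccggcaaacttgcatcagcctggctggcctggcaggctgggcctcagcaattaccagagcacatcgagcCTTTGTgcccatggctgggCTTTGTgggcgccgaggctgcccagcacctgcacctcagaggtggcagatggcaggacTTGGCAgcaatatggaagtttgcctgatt

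None of the 3 stretches holds an AP-1 match. All 3 hold at least 1 SOX match. The stretch at 64.1 kb also holds an NFI match.

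The strongest *Mycn* site lay 3′ of the gene. The region at chr12:12904401-12905032 touches an exon of the noncoding RNA gene *4930519A11Rik* and had a fold enrichment of 10.6 in SMC-1 (percentile 98.2, −log10 q 16.4) and 11.2 in SMC-2 (98.4, 27.3). The region at 12680466-12681024, in no gene, reached 8.44 (95.3, 11.7) and 14.5 (99.6, 53.3). The region at 12877581-12878062, in no gene, reached 10.4 (98, 16.1) and 7.50 (93.9, 13.5). By the definition of the class, these 3 sites were listed in neither non-SMC line.

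The fourth site, at 12647580-12648002, had percentiles of 87.7 and 97.2, and the fifth, at 13291018-13291719 in a *Nbas* intron, had 85.7 and 95.3. The sixth, at 12541461-12541893, was low in SMC-1 (19.7) and higher in SMC-2 (77.9). The seventh, at 13129823-13130024, had 44.0 and 49.9. Thus 5 of the 7 sites had a percentile of 85.7 or more in both lines and 2 were weaker. Their median mean percentile was 92.4, against 74.3 over all 14095 distal SMC-only regions, and 4 of 7 had a −log10 q of 5 or more in both lines (57.1%, against 21.0%). Their summits were less well aligned than those of their class, a median of 101 bp apart against 55 bp, and none lay within 50 bp.

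A further *Mycn* site fell short of the class because of 1 library. The region at chr12:12810167-12811169, 131 kb downstream and in no gene, had percentiles of 97.9 in SMC-1 and 96.6 in SMC-2, and of 74.3 in non-SMC-2, with no peak in non-SMC-1. The single non-SMC-only site, at 13430220-13430560 in a *Nbas* intron, was modest, with percentiles of 55.8 and 70.7. The distal site of all 4 lines, at 13254996-13255520 between *Ddx1* and *Nbas*, ranked at 85.8 in SMC-1, 8.81 in SMC-2, 93.3 in non-SMC-1 and 91.2 in non-SMC-2. It was the region of the window with the highest rank in non-SMC-1. The outermost SMC-only sites lay at 400 kb (downstream) and -349 kb (upstream) from the start site, and the next beyond the window at 550.3 kb and -635 kb.

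The promoters of the neighbouring genes ranked higher in both SMC lines than in both non-SMC lines. The share of all promoters with this order was not computed, so it is not shown to be particular to this window. The *Ddx1* promoter had peaks in every library, at highest percentiles of 80.0 and 91.2 in the SMC lines and 55.8 and 61.1 in the non-SMC lines. The *Nbas* promoter ranked at 92.9 and 87.6 in the SMC lines and 68.2 and 80.9 in the non-SMC lines. Both promoters were detected in non-SMC-1, where that of *Mycn* was not listed.

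**Figure D3:**
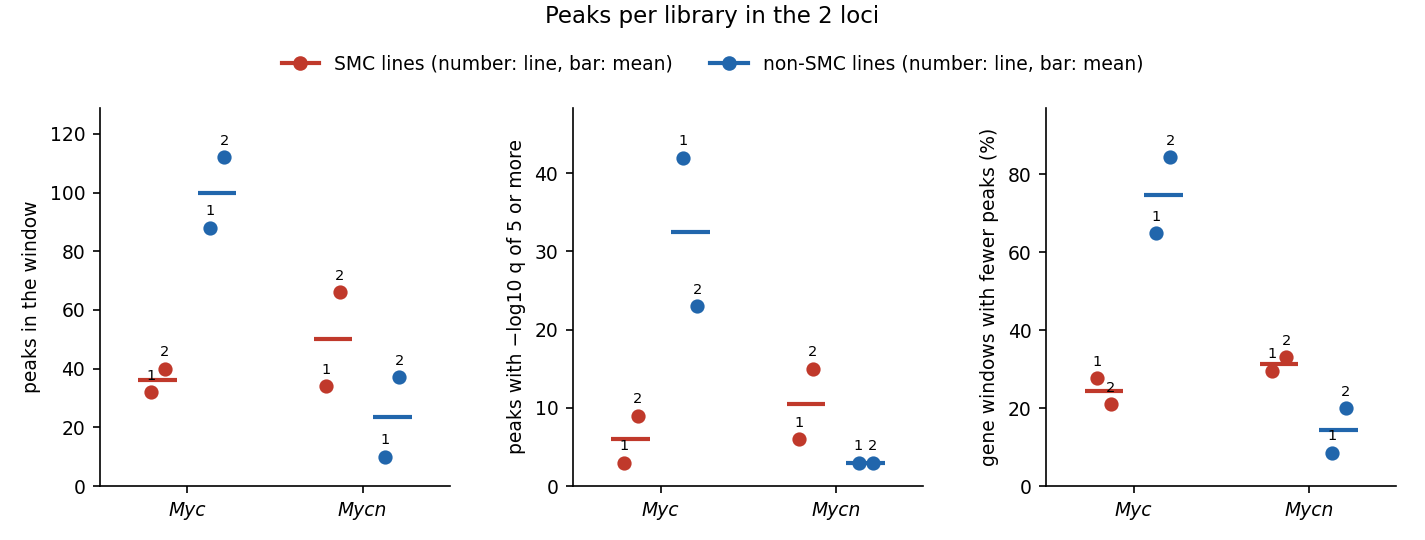
Peaks per library in the 2 windows (left), peaks with a −log10 q of 5 or more (middle) and the share of all gene windows with fewer peaks in the same library (right), each dot 1 line, numbered, and each bar the mean of 2 lines. At *Myc* both non-SMC lines sit above both SMC lines in all 3 panels, and at *Mycn* the types overlap in the left panel.

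Set among the windows of all 21938 protein-coding genes, *Myc* was extreme in its non-SMC-only sites. It was 1 of 70 genes (0.319%) with 39 or more, with a median of 11 and a 90th percentile of 22 over all genes. The 3 SMC-only sites at *Myc* were above 24.1% of windows, where the median was 6. The 7 SMC-only sites at *Mycn* were above 56.9% of windows and so near the middle, and its 1 non-SMC-only site was above 6.66%. Neighbouring genes share sites, so these windows are not independent. *Mycn* thus had few non-SMC-only sites and an ordinary number of SMC-only sites. The rank of its SMC-only sites was set against their class alone, not against other windows. The low non-SMC-only count depended on non-SMC-1, which had 10 peaks in the window. Without that library 27 such sites were counted, though a class that needs 1 line is larger by construction.

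**Figure D4:**
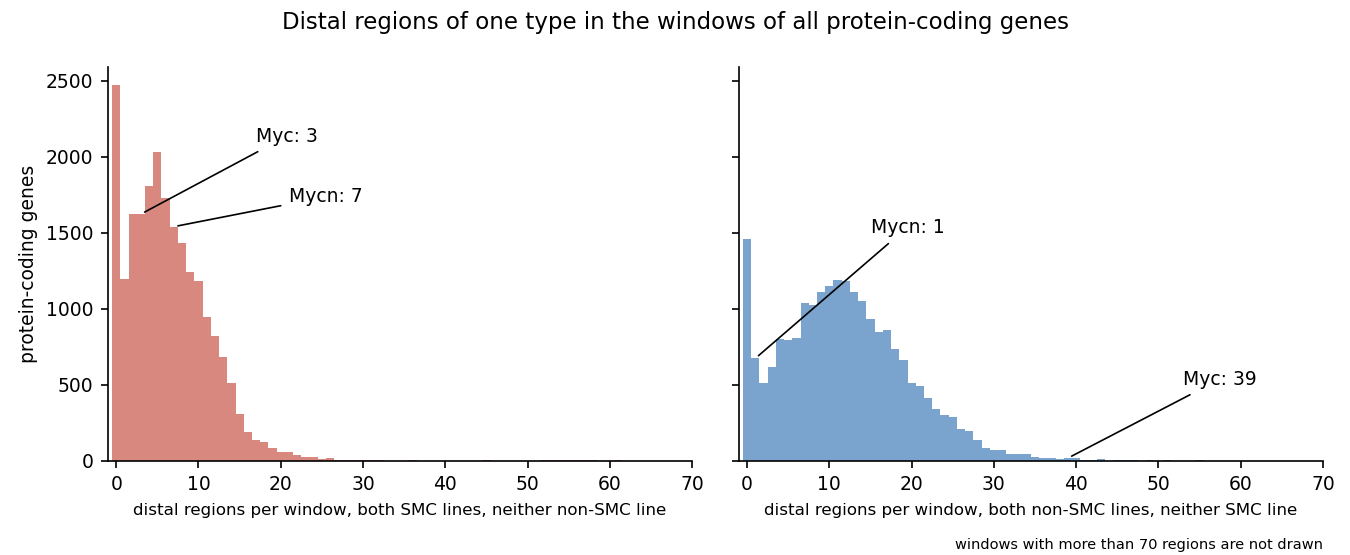
Number of protein-coding genes (y axis) by the number of distal SMC-only (left) or non-SMC-only (right) regions in their window (x axis), with both genes marked. *Myc* lies at 39 in the tail of the right panel and *Mycn* at 1 near its left end, while both lie in the body of the left panel.

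**Figure D5:**
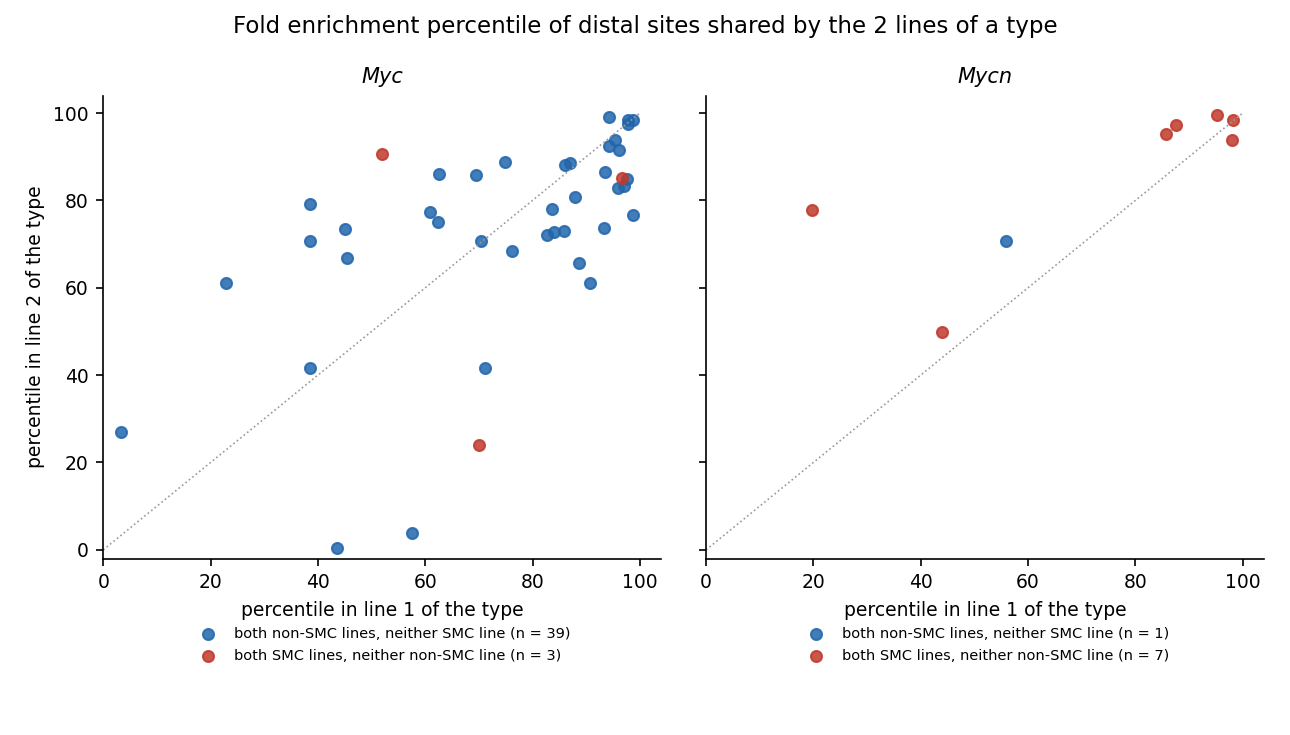
Fold enrichment percentile of each distal site in line 1 (x axis) and line 2 (y axis) of the type that shares it, at *Myc* (left) and *Mycn* (right), with the dotted line marking equal rank. At *Mycn* 5 of 7 SMC-only sites lie in the upper right corner, and at *Myc* the 39 non-SMC-only sites run from there to low ranks.

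At *Myc*, AP-1, RUNX, SOX and TEAD were the motifs found in the most non-SMC-only sites. AP-1, bound by FOS and JUN dimers, matched in 18 of the 39 non-SMC-only sites at *Myc* (46.2%), against 47.7% of all distal non-SMC-only regions and 11.7% of all distal regions. RUNX matched in 13 (33.3%), against 31.9% and 20.6%, and TEAD, the DNA-binding partner of YAP and TAZ, in 11 (28.2%), against 19.5% and 12.9%. SOX matched in 14 (35.9%), against 28.1% and 27.7%, and NFI in 7 (17.9%), against 16.4% and 13.0%. Forkhead matched in 5 (12.8%), against 7.43% and 9.11%. The MYC E-box matched in 2 (5.13%), against 2.97% and 3.26%.

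At the 7 SMC-only sites of *Mycn* SOX matched in 3 (42.9%), against 42.6% of all distal SMC-only regions and 27.7% of all distal regions. AP-1 and the MYC E-box matched in none, against 4.38% and 3.43% of the class, and a count of 0 of 7 places little limit on either share. TEAD, RUNX, NFI and forkhead each matched in 1, against 9.49%, 15.8%, 17.4% and 22.9% of the class. With 7 sites, 1 site more or less moves a share by 14.3 percentage points. At *Myc*, by contrast, an AP-1 match was present in 1 of 3 SMC-only sites and in 0 of 2 distal sites of all 4 lines. A match says that the letters are present and is not evidence that a factor was bound.

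The local background at the listed peaks around *Myc* was higher in the non-SMC lines. The local background recovered for each peak was divided by the lowest of its library. The median over the listed peaks of the *Myc* window was 1.08 in SMC-1, 1.00 in SMC-2, 1.49 in non-SMC-1 and 1.26 in non-SMC-2. On the log2 scale the SMC minus non-SMC difference was -0.39, with an SD between lines of 0.13, and -0.11 with 1 Mb on each side. Each library was read at its own peaks, so the positions differ between lines. The share of gene windows with this order was not computed. At *Mycn* the medians were 1.19, 1.00, 1.00 and 1.00. The highest single ratio was 6.37, at the *Myc* promoter in non-SMC-1, and 3.95 in the *Mycn* window, in SMC-1.

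The partners and antagonists of MYC and MYCN were examined at their promoters alone. Of 12 network genes, 11 were listed at the promoter by every library, against 48.7% of all protein-coding genes, and the exception, *Mlxipl*, a glucose-responsive factor that pairs with MLX, had none in SMC-1. *Max*, the obligate partner, had highest percentiles of 98.4, 97.7, 96.2 and 96.2 in the order SMC-1, SMC-2, non-SMC-1 and non-SMC-2. *Mxd1*, a MAX-binding repressor, had 99.4, 98.7, 99.6 and 99.8, and *Mxd4* had 99.1, 97.0, 96.4 and 99.6. The promoter of *Mycl*, the third paralog, had a highest percentile of 82.9, 62.5, 67.7 and 74.2, so the types overlapped in fold enrichment rank. Its highest −log10 q was 94.4 and 69.6 in the SMC lines and 8.25 and 3.43 in the non-SMC lines. The highest percentile and the highest −log10 q were taken separately and can come from different peaks. The local background at this promoter is not given here, so the −log10 q alone does not show a more accessible promoter. Among the 3 paralogs the promoter peak was therefore present in every line for *Myc* and *Mycl* and in 3 of 4 lines for *Mycn*.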

How the data were processed

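ATAC-seq was measured in 4 untreated cell lines, 2 SMC and 2 non-SMC, with 1 library each. Per the labels and the study's methods, the authors mapped paired-end reads to mm10 with Bowtie2 2.3.4, removed duplicates and called peaks in each library separately with MACS2 2.1.1; the calling settings are not given in the sources used here, and the lowest listed −log10 p was about 2. The deposited values used were the fold enrichment at each summit (a ratio of pileup to local background) and the −log10 p and −log10 q of each peak, as the authors' caller wrote them. The deposited score and summit offset columns were also read, the score only to check its scale.

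Peaks outside chromosomes 1 to 19, X and Y (61 to 85 per list) were left out. Whole pileups and local backgrounds were recovered from fold enrichment and −log10 p. The recovered values gave back the listed −log10 p within 0.1% for every peak. Depth was estimated from the lowest background, MACS2's preset mouse genome size and the shortest peak. Peaks sharing 1 base were merged. Motifs were read from GRCm38.p6 within 100 bp of summits. 1 SMC marker and 1 motif of the planned lists are not reported here. The steps were tested on simulated data. No p-value across lines was computed. Gene positions came from GENCODE M21. The genes named were *Myc* and *Mycn*, the protein-coding genes and *Pvt1* in their windows, 12 MYC network genes, and, of the distal sites of 1 type, the 6 with the highest mean percentile, with the rest given by counts; the seventh *Mycn* site, the 3-line regions and the noncoding hosts of sites were named after their values were seen. The members and lists were chosen with earlier results of these data known. Alternatives changed the peak threshold, depth, window, overlap, distance and libraries. Python 3.11.15, NumPy 2.4.6, pandas 2.3.3, SciPy 1.17.1 and pysam 0.24.0 were used.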

Additional observations from a re-analysis of the deposited data

Results flagged for a closer look

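The height of the *Myc* promoter peak went in opposite directions in the 2 same-numbered pairs of lines. Its fold enrichment percentile was 12 higher in SMC-1 than in non-SMC-1, while SMC-2 minus non-SMC-2 was -8.35. With 1 library per type in a pair, no test of this difference was possible, and it was not tested.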

How the results depend on the processing

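With 2 lines a type and no test, the limits are the spread between lines, unequal depth, and peak lists in which most entries are weak. The lines' numbers are shared by both types. The series describes its lines as pairs across the types, without saying what a number marks. Percentile deviations of same-numbered lines had a correlation of 0.001 over 13607 regions. With 2 lines a type, this value does not decide whether the lines were matched. The means and SDs treat the lines as unpaired, and a replicate block compares same-numbered lines.

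For *Myc*, the peak difference was -26.5 at a −log10 q of 5, -48.5 with equal list lengths, -23.5 with 250 kb, -107 with 1 Mb and -52 to -76 with 1 library left out. The promoter percentile difference was -72.7 at a −log10 q of 5, 12 and -8.35 in a replicate block (pair 1, pair 2), and -7.12 to 10.8 with 1 library left out. The background difference was -0.11 with 1 Mb and -0.51 to -0.27 with 1 library left out. Non-SMC-only sites numbered 19 at a −log10 q of 5, 17 with 250 kb, 64 with 1 Mb, and 78, 102 and 90 in a replicate block (pair 1, pair 2, mean), and 40 to 100 with 1 library left out. They numbered 100 without non-SMC-1 and 75 without non-SMC-2. SMC-only sites numbered 1 at a −log10 q of 5, 6 with 1 Mb, 21, 29 and 25 in a replicate block, and 4 to 26 with 1 library left out (26 without SMC-1, 19 without SMC-2).

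For *Mycn*, equal list lengths gave 34 and 45 peaks in the SMC lines and 10 and 26 in the non-SMC lines, without overlap. The peak difference was then 21.5, with an SD between lines of 9.71. Scaled to the shallowest library, the counts were 34 and 42 against 8 and 35 and overlapped. With 1 library left out the peak difference ran from 10.5 (without SMC-2) to 42.5, with 13 without non-SMC-1. The promoter percentile difference ran from 24.2 (without non-SMC-1) to 81.3, and the background difference from 0 (without SMC-1) to 0.26. SMC-only sites numbered 3 with 250 kb, 15 with 1 Mb, 25, 53 and 39 in a replicate block, and 7 to 52 with 1 library left out (52 without SMC-1, 23 without SMC-2). Non-SMC-only sites numbered 0 with 250 kb, 4 with 1 Mb, 2 at an overlap of 50% of both peaks, 7, 28 and 17.5 in a replicate block, and 1 to 27 with 1 library left out (27 without non-SMC-1, 6 without non-SMC-2). A class that needs 1 line in place of 2 is larger by construction.

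Of the motif shares, SOX at *Myc* was 15.4% within 50 bp and 53.8% within 250 bp, against 15.0% and 55.5% of its class, so its excess over the class was not kept. NFI at *Myc* was 38.5% within 250 bp, against 31.3%. Within 50 bp, TEAD and forkhead at *Myc* were 20.5% and 12.8%, against 11.3% and 3.88%. Within 250 bp they were 35.9% and 17.9%, close to the 34.6% and 17.6% of their class, so their excess depended on the window. TEAD and NFI at *Mycn* were 0% within 50 bp, and within 250 bp RUNX at *Mycn* was 57.1%, against 34.7% of its class, and NFI and forkhead were 28.6%. After scaling to the shallowest library, 37 non-SMC-only sites at *Myc* and 7 SMC-only sites at *Mycn* were counted. Library omissions aside, 71 values under these alternatives stayed within the spread between lines, 1.5 times the count or, for motif shares, the binomial interval, which is wide for 7 sites, and 35 moved further, for which the cause was not tested unless named.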
